A study of Homo sapiens with 6 samples.

Results

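The bone morphogenetic protein (BMP) ligands, receptors and decoys are 8 genes here: the ligand genes BMP2, BMP4 and BMP7, the receptor genes BMPR1A, BMPR1B and BMPR2, the decoy receptor gene BAMBI and the secreted antagonist gene NOG. They were chosen by gene symbol, with earlier results of these data known. All 8 were found among the 23591 genes of the deposited expression table. Their levels were read in 6 libraries of H1, an established human embryonic stem cell line grown in a defined medium without serum on Matrigel. Wild type cells gave 3 libraries, and cells with the genotype HEB KO, a knockout of the E protein HEB that the TCF12 gene encodes, gave the other 3. The labels name no added agent or further genotype in either group. The labels do not say whether the HEB KO libraries came from 1 clone, nor whether the libraries of a group were separate cultures. The column headers of the 3 HEB KO libraries share 1 stem, whose meaning is not given. Each p-value therefore reflects the spread among these libraries alone, which may be technical.

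BMP ligands are secreted dimers that bring together type I and type II receptor kinases at the cell surface. The type II receptor activates the type I receptor, which phosphorylates SMAD1, SMAD5 and SMAD9, and these enter the nucleus with SMAD4 and switch on targets such as the ID genes. Noggin, the product of NOG, binds the ligands outside the cell, while BAMBI resembles a type I receptor but has no kinase domain. In human embryonic stem cells, added BMP ligand is known to drive exit from pluripotency towards extraembryonic and mesodermal fates, and mouse embryonic stem cells are known to use BMP in self-renewal. HEB belongs to the E protein class of helix-loop-helix factors, which ID proteins hold inactive by dimerizing with them.

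TCF12 was measured first, as a check of the labels. Its level was 44.2, 55.7 and 51.0 FPKM (fragments per kilobase and per sequencing depth, a level scaled to transcript length) in wild type against 14.2, 6.69 and 8.28 FPKM in HEB KO, and it fell by 2.31 on the log2(FPKM + 1) scale (SE 0.28, adjusted p = 0.0310 by limma over 12937 genes). The groups did not overlap, but the call was lost in 8 of 17 other settings, namely no filter (adjusted p = 0.105), the same sum for each library (0.329), a replicate block (0.0957) and 5 of the 6 single libraries left out (0.126 to 0.193), with log2 fold changes of -2.40 to -2.10 in those 8. HEB KO library 1 stood apart from the others: its values summed to 440703 FPKM against 635114 to 714875 FPKM elsewhere, and 13961 genes reached 1 FPKM in it against 12468 to 12865 in the other 5. The table holds no counts, so the depth of each library is unknown and low values carry an unknown counting error.

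Of the 8 genes, 5 could be tested and none of these passed between HEB KO and wild type, where 0.24% of all genes passed. Of the 5, 3 were lower in every HEB KO library than in any wild type library, as were 11.8% of all tested genes. These were BMP7, the main BMP ligand by level, BMPR1A, the main type I receptor, and BAMBI. Their group means were 1.98-fold, 1.70-fold and 1.85-fold lower in HEB KO. BMP4 and BMPR2 overlapped between the groups, and BMP2, BMPR1B and NOG stayed below 1 FPKM in all 6 libraries. The 5 genes other than BMP2, BMPR1B and NOG reached 1 FPKM in every library, and so none of them entered the test through 1 group alone.

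FPKM is scaled to length, so the levels can be set against each other if the values are FPKM. That unit was inferred from the values, and the order of genes and all shares below rest on it. In wild type the order was BMPR1A, BAMBI, BMP7, BMPR2 and BMP4, with means of 90.8, 33.5, 15.3, 5.18 and 1.86 FPKM, and no 2 neighbours in that order overlapped. NOG, BMPR1B and BMP2 followed at means of 0.437, 0.402 and 0.392 FPKM, and their ranges overlapped. In HEB KO, BMPR1A, BAMBI and BMP7 held the first places without overlap at 53.4, 18.1 and 7.73 FPKM. BMPR2 overlapped with BMP7 and with BMP4 there, although within each single HEB KO library the order BMP7, BMPR2, BMP4 held. The level of BMPR1A exceeded that of 93.0% of the 12937 tested genes in wild type and that of 89.8% in HEB KO.

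**Figure D1:**
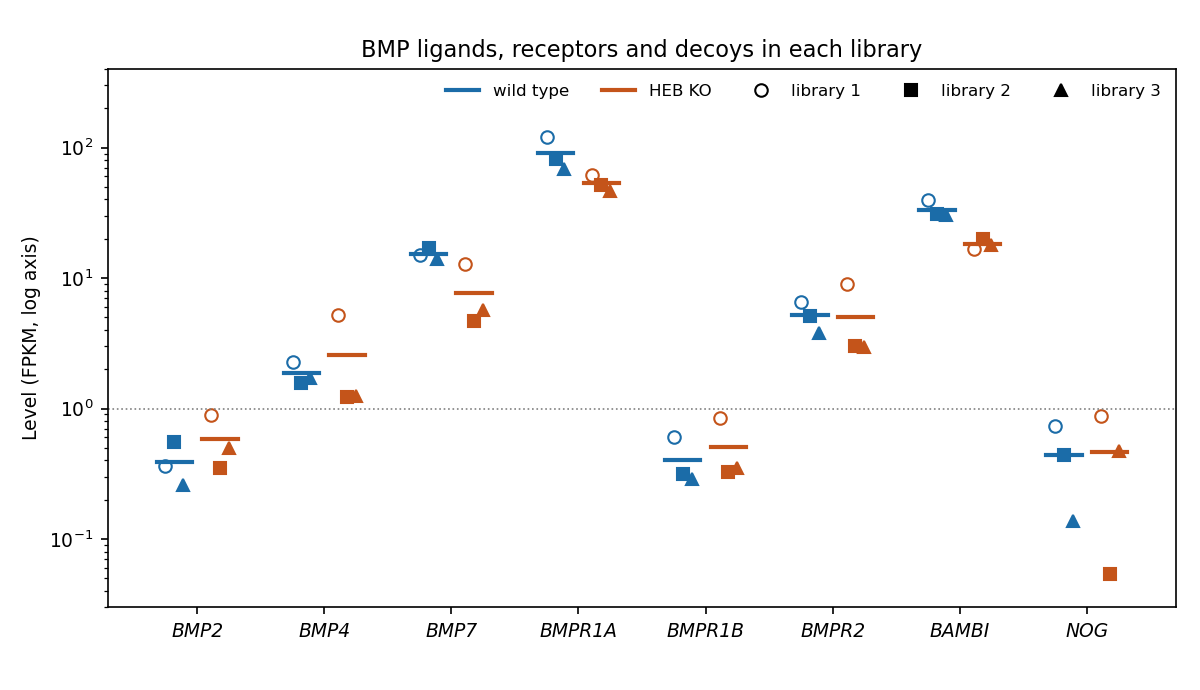
Level of each of the 8 genes in each library, in FPKM on a log axis; blue marks are wild type and orange marks HEB KO, the marker shape gives the library number, short bars are group means (n = 3 each) and the dotted line is 1 FPKM. BMP7, BMPR1A and BAMBI do not overlap between the groups, and HEB KO library 1 (open orange circle) is the highest HEB KO library for 7 of the 8 genes.

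Among the ligands, BMP7 carried most of the signal. BMP7 encodes a ligand that also forms heterodimers with BMP2 or BMP4. It read 15.0, 17.1 and 13.9 FPKM in wild type libraries 1 to 3 and 12.9, 4.67 and 5.66 FPKM in HEB KO libraries 1 to 3. All HEB KO values lay below the wild type ones, with library 1 close under the lowest wild type value and libraries 2 and 3 far from it. The log2 fold change of BMP7 was -1.01 (95% confidence interval -1.79 to -0.24, adjusted p = 0.388 by limma). Without HEB KO library 1 the BMP7 mean was 2.97-fold lower than in wild type, and the gene passed the test (log2 fold change -1.41, adjusted p = 0.0341 by limma, in a fit that called 0.587% of all genes, 0.518% as lower). It passed as well with both libraries numbered 1 left out (log2 fold change -1.42, adjusted p = 0.0103 by limma), where 3.71% of all genes were called, 2.23% as lower.

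BMP4, the ligand most used to differentiate human embryonic stem cells, was at a low level in 5 of the 6 libraries. It read 2.28, 1.58 and 1.71 FPKM in wild type. HEB KO libraries 2 and 3 read 1.23 and 1.24 FPKM, below every wild type library. HEB KO library 1 read 5.19 FPKM, above all the others and 4.21-fold over the mean of HEB KO libraries 2 and 3. The direction of BMP4 therefore rested on that library: the log2 fold change was 0.14 with it (95% confidence interval -0.78 to 1.07, adjusted p = 0.923 by limma) and -0.35 without it (adjusted p = 0.354). BMP2, a close relative of BMP4, read 0.363, 0.555 and 0.259 FPKM in wild type, against 0.885, 0.353 and 0.501 FPKM in HEB KO. These values overlapped and were all under 1 FPKM, so BMP2 was not tested.

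The shares of the ligand transcripts were compared without a test. BMP7 made up 85.0%, 88.9% and 87.6% of the summed FPKM of BMP2, BMP4 and BMP7 in wild type, and 67.9%, 74.7% and 76.5% in HEB KO. BMP4 took 12.9%, 8.18% and 10.8% of that sum in wild type and 27.4%, 19.7% and 16.7% in HEB KO. BMP2 took 1.64% to 2.88% in wild type and 4.67% to 6.77% in HEB KO. The groups did not overlap for any of these shares, which are tied to each other because they add up to the whole. How often such shares separate among all genes was not measured. The BMP2 share rests on levels under 1 FPKM. BMP4 itself was above wild type in HEB KO library 1 (5.19 FPKM) and below it in libraries 2 and 3 (1.23 and 1.24 FPKM). In HEB KO libraries 2 and 3 the ligand sum itself was 6.25 and 7.40 FPKM. The wild type sums were 15.8 to 19.3 FPKM, a range that holds the 18.9 FPKM of HEB KO library 1.

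**Figure D2:**
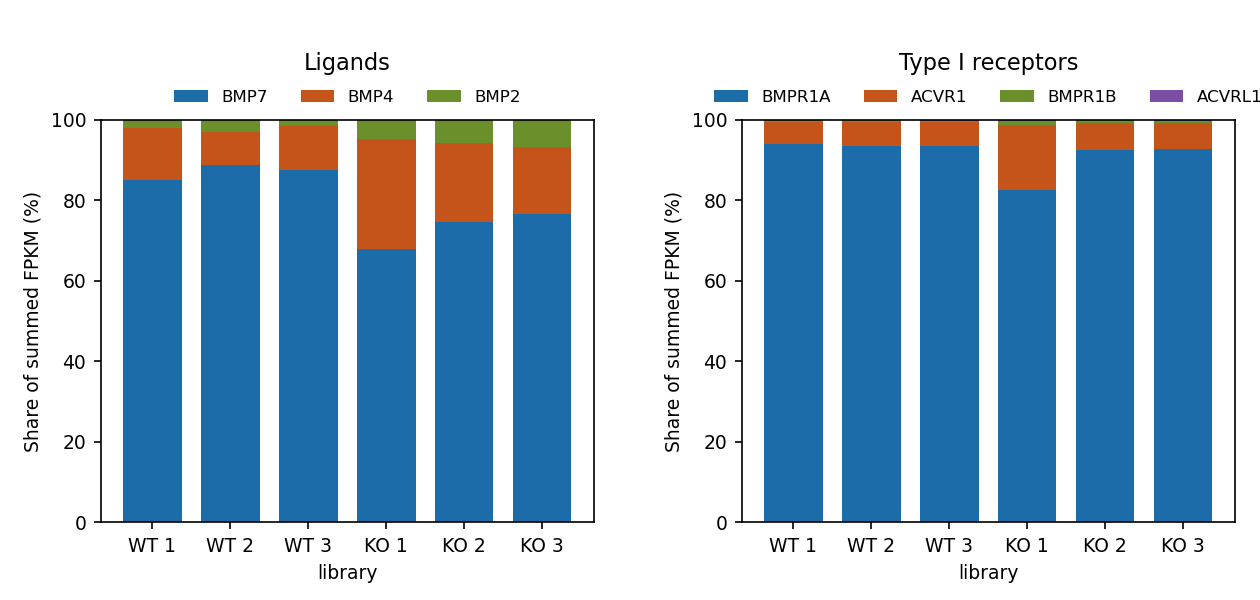
Share of each gene, in percent of the summed FPKM, among the ligands BMP2, BMP4 and BMP7 (left) and among the type I receptors BMPR1A, ACVR1, BMPR1B and ACVRL1 (right), for each wild type (WT) and HEB KO (KO) library. The BMP7 share is 85.0% to 88.9% in wild type and 67.9% to 76.5% in HEB KO, and the ACVR1 share stands out at 16.2% in HEB KO library 1.

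Among the receptors, BMPR1A encodes the type I receptor kinase that binds BMP2 and BMP4 with high affinity. It read 121, 82.3 and 68.8 FPKM in wild type, against 61.7, 51.9 and 46.5 FPKM in HEB KO. The groups did not overlap, but wild type library 3 and HEB KO library 1 lay close together, and wild type library 1 was 1.61-fold over the mean of the other two. The log2 fold change was -0.72 (95% confidence interval -1.36 to -0.09, adjusted p = 0.434 by limma). It was -0.50 without wild type library 1 and -0.83 without HEB KO library 1, with adjusted p = 0.640 and 0.197. The GENCODE annotation lists 2 processed pseudogenes of BMPR1A, so reads from such copies could enter its value.

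BMPR1B, the second BMP type I receptor, was at 0.601, 0.316 and 0.288 FPKM in wild type, against 0.853, 0.324 and 0.347 FPKM in HEB KO. The library numbered 1 was the highest in each group, and the groups overlapped. BMPR1A held 93.5% to 94.0% of the summed FPKM of the type I receptors BMPR1A, BMPR1B, ACVR1 and ACVRL1 in wild type. Its share was 92.5% and 92.8% in HEB KO libraries 2 and 3 and 82.5% in HEB KO library 1, where ACVR1, the type I receptor also known as ALK2, held 16.2% against 5.43% to 6.85% in the other 5 libraries.

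BMPR2, the type II receptor that acts mainly for BMP ligands, read 6.59, 5.16 and 3.79 FPKM in wild type, against 9.01, 3.04 and 2.96 FPKM in HEB KO. HEB KO library 1 was the highest of the 6 libraries, and HEB KO libraries 2 and 3 were the lowest. The log2 fold change was -0.16, with a 95% confidence interval of -1.05 to 0.73 that spans 0 (adjusted p = 0.910 by limma). The sign turned when each library was rescaled to the same sum (0.04) and without HEB KO library 2 (0.05) or 3 (0.07). The value was 0.00 without wild type library 1 and -0.60 without HEB KO library 1. Among the type II receptors BMPR2, ACVR2A and ACVR2B, the BMPR2 share was 7.49% to 8.21% of summed FPKM in wild type and 6.03% to 10.5% in HEB KO. ACVR2B, a receptor shared with activin and Nodal signals, held 78.8% to 81.3% of that sum in all 6 libraries.

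BAMBI, the decoy receptor that sits in receptor complexes without signalling, had the steadiest values in HEB KO. It read 39.3, 31.0 and 30.2 FPKM in wild type, against 16.7, 19.8 and 17.9 FPKM in HEB KO. The highest HEB KO value was well below the lowest wild type value, and HEB KO library 1, the highest of its group for the other 7 genes, was the lowest for BAMBI. The log2 fold change was -0.84 (95% confidence interval -1.31 to -0.38, adjusted p = 0.266 by limma), and BAMBI ranked 155 among the 12937 genes by its unadjusted p of 0.00319. The fold between the group means was 1.85 with HEB KO library 1 and 1.78 without it. BMPR1A exceeded BAMBI by a ratio of 3.09, 2.65 and 2.28 in wild type and 3.70, 2.62 and 2.60 in HEB KO, values that overlapped.

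NOG, which encodes noggin, read 0.731, 0.444 and 0.137 FPKM in wild type, against 0.874, 0.0541 and 0.473 FPKM in HEB KO. These values spread over more than the distance between the groups, whose means were 0.437 and 0.467 FPKM. At so low a level a difference in NOG was not detectable in these libraries.

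BAMBI and BMPR1A both lie on chromosome 10, and their promoter windows are shown because both genes were lower in every HEB KO library. The BMPR2 window is shown beside them as that of a receptor gene whose groups overlapped. RefSeq's promoter table (GRCh38.p14) held windows for 5 of the 8 genes, each running from 250 bases before to 50 bases after an annotated start, and BMP2, BMP7 and NOG were not matched. The windows are chr10:28677271-28677570 for BAMBI, chr10:86755513-86755812 for BMPR1A and chr2:202376077-202376376 for BMPR2, all on the plus strand. Capitals mark every match, on either strand, to the E-box CANNTG, the letters that E proteins bind, and to GGCGCC, a GC-rich motif known to bind SMAD proteins. The marked matches did not overlap each other.
BAMBI: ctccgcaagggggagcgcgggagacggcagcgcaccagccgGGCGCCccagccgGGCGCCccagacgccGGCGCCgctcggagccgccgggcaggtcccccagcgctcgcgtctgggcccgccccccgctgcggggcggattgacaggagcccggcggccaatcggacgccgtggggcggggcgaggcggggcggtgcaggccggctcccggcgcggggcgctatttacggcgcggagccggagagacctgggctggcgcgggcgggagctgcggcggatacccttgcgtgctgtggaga
BMPR1A: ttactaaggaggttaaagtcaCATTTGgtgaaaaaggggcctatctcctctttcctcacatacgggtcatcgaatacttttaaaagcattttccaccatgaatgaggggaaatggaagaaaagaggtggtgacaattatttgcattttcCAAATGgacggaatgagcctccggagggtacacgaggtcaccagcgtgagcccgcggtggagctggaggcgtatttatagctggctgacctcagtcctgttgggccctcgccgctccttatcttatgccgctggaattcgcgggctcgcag
BMPR2: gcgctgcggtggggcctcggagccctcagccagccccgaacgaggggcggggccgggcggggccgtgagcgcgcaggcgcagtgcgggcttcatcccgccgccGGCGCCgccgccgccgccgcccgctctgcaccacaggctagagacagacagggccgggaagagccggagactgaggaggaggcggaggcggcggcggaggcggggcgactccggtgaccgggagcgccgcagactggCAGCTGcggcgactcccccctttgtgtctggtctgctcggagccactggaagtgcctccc
The BAMBI window held no E-box and 3 copies of GGCGCC, all in the part of the window farthest before the start, and its GC content was 80.0%. The BMPR1A window held 2 E-boxes and no GGCGCC, with a GC content of 50.3%. The BMPR2 window held 1 E-box of the form CAGCTG and 1 GGCGCC. BMP4 and BMPR1B, whose groups also overlapped, had windows that are not shown. Each BMPR1B window held an E-box and none held GGCGCC. Of the BMP4 windows, 1 held an E-box, another held 2 copies of GGCGCC, and the remaining one held neither. Of 35116 promoter windows of the same length in the table, 68.7% held an E-box, 17.9% held CAGCTG and 19.2% held GGCGCC. No window of the 5 matched genes held the palindromic SMAD motif GTCTAGAC, which 0.202% of all windows held. Binding was not measured in these libraries, and a match is only a description of the letters.

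Over the 8 genes together, 0 of the 5 tested passed limma at an adjusted p of 0.05, where 0.24% of all 12937 genes passed, 0.216% as lower. At an unadjusted p under 0.05 there were 3 of 5, BAMBI, BMP7 and BMPR1A, against 10% of all genes. The same 3 lay wholly below wild type, against 11.8% of all genes, and no gene of the 8 lay wholly above, against 7.72%. The 8 genes were chosen with earlier results of these data known, so setting them beside all genes is no test of the list. The median log2 fold change over the 5 was -0.72, beside -0.04 over all genes tested, of which 54.8% had a negative value. In a fit with a weight estimated for each library, BMP7, BMPR1A and BAMBI all passed (log2 fold changes -1.40, -0.73 and -0.74, adjusted p = 0.00145, 0.0175 and 0.00755 by limma). That fit called 14.5% of all genes (7.95% as lower). HEB KO library 1 had a weight of 0.134 against 1.94 and 4.24 for HEB KO libraries 2 and 3. Wild type library 1 had 0.32 against 2.64 and 1.07 for wild type libraries 2 and 3. It was the highest wild type library for 4 of the 5 tested genes, against 45.8% of all tested genes. The two-sided exact permutation p was 0.1 for each of BMP7, BMPR1A and BAMBI, the smallest that 3 libraries against 3 can give. In bulk RNA, fewer cells that express a gene and less of its RNA per cell cannot be told apart.

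**Figure D3:**
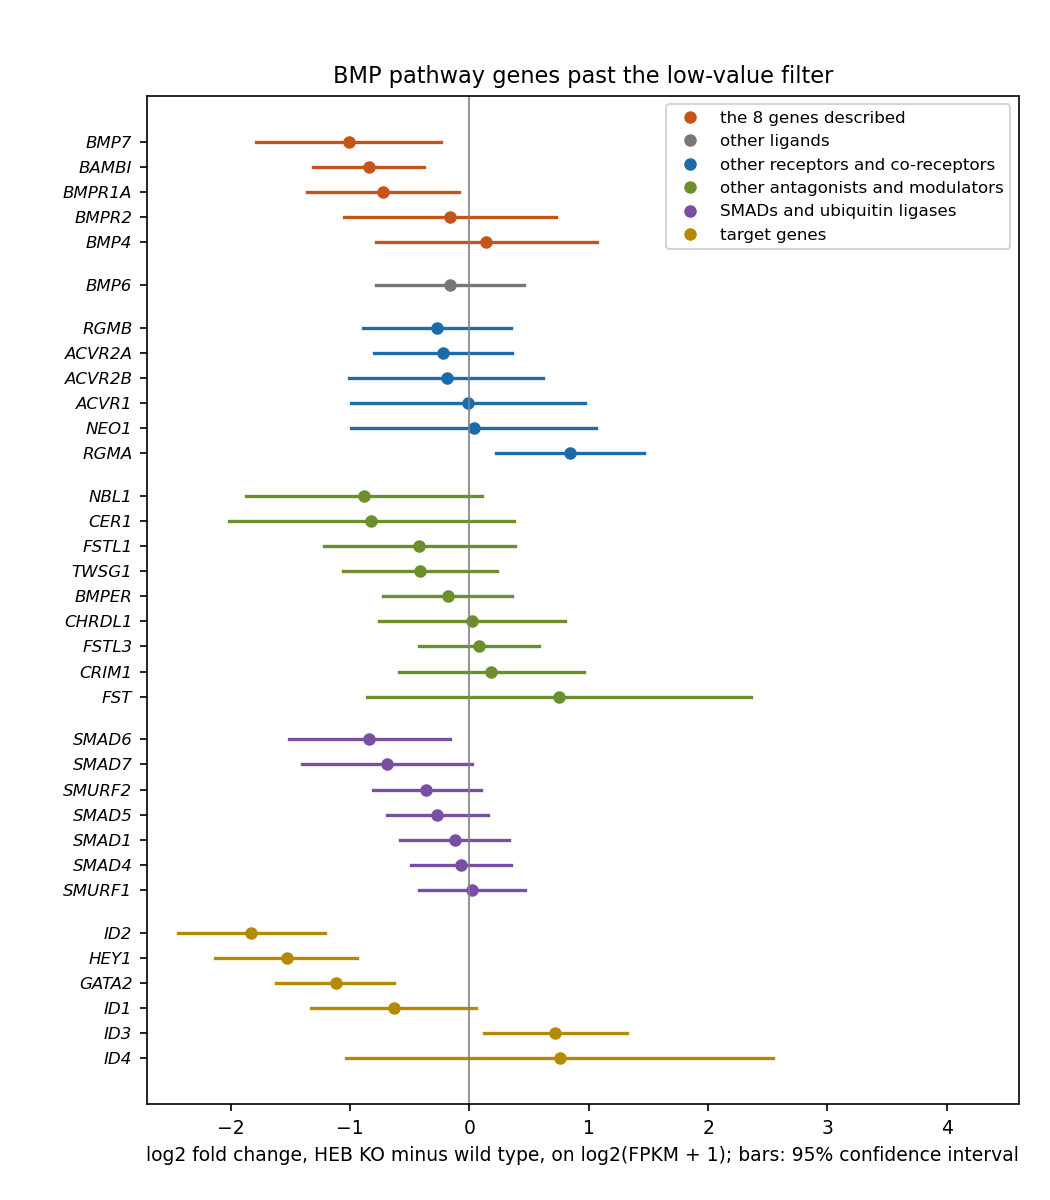
Log2 fold change (HEB KO minus wild type, on log2(FPKM + 1)) with its 95% confidence interval from limma for the BMP pathway genes past the filter on low values, coloured by role. The intervals of BMP7, BAMBI and BMPR1A lie below 0 before adjustment, and those of BMPR2 and BMP4 span 0.

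HEB KO library 1 was the highest HEB KO library for 4 of the 5 tested genes, whereas it was so for 45% of all tested genes. In it BMP4, BMPR2 and BMP7, 3 of the 5, were at least 2-fold over the mean of HEB KO libraries 2 and 3, as were 14.9% of all tested genes. BMP2, BMPR1B and NOG were also highest and at least 2-fold over in it, but of the 5470 genes that stayed below 1 FPKM in all libraries, with a value above 0 in HEB KO, 68.6% were highest in it and 54.8% at least 2-fold over. Among the other lists it was the highest for 6 of 6 tested receptors and co-receptors, 5 of 9 antagonists, 4 of 8 targets and 2 of 7 SMADs and ligases. BMPR1A was 1.25-fold over and BAMBI stood at 0.885 of that mean. Several genes related to BMP signalling were picked because they were high in that library. GREM1, which encodes the BMP antagonist gremlin, read 9.20 FPKM there and at most 0.375 FPKM elsewhere, and FST, which encodes follistatin, read 22.7 FPKM against 1.93 to 4.31 FPKM. MSX2 and DLX5, homeobox genes known to respond to BMP, read 5.26 and 8.63 FPKM there and at most 0.468 and 0.0545 FPKM elsewhere. Of the 12 amnion and trophoblast markers, TFAP2A and GATA3 read 3.90 and 2.47 FPKM there and at most 0.0609 and 0.0407 FPKM elsewhere. ISL1 and HAND1 read 0.827 and 0.173 FPKM there and at most 0.138 and 0.0300 FPKM elsewhere. KRT7 and VTCN1 also exceeded wild type there, at 1.70 and 0.119 FPKM against at most 1.06 and 0.0735 FPKM. Both were higher still in HEB KO library 3, at 2.78 and 0.142 FPKM. KRT7 lay wholly above wild type, as did 7.72% of all tested genes. The remaining markers of that list did not exceed wild type in HEB KO library 1. GATA2 read 0.161 FPKM against 1.06 to 1.74 FPKM in wild type, CDX2 read 0.0313 FPKM, and CGA and CGB5 were at 0. GABRP and IGFBP3 lay within the wild type range at 2.74 and 2.30 FPKM. Against HEB KO libraries 2 and 3, GATA2 (0.0679 and 0.0333 FPKM) and GABRP (1.38 and 1.69 FPKM) were higher in library 1, and IGFBP3 lay between them. Whether other cells took part in the values of BMP4 and BMPR2 was not tested.

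**Figure D4:**
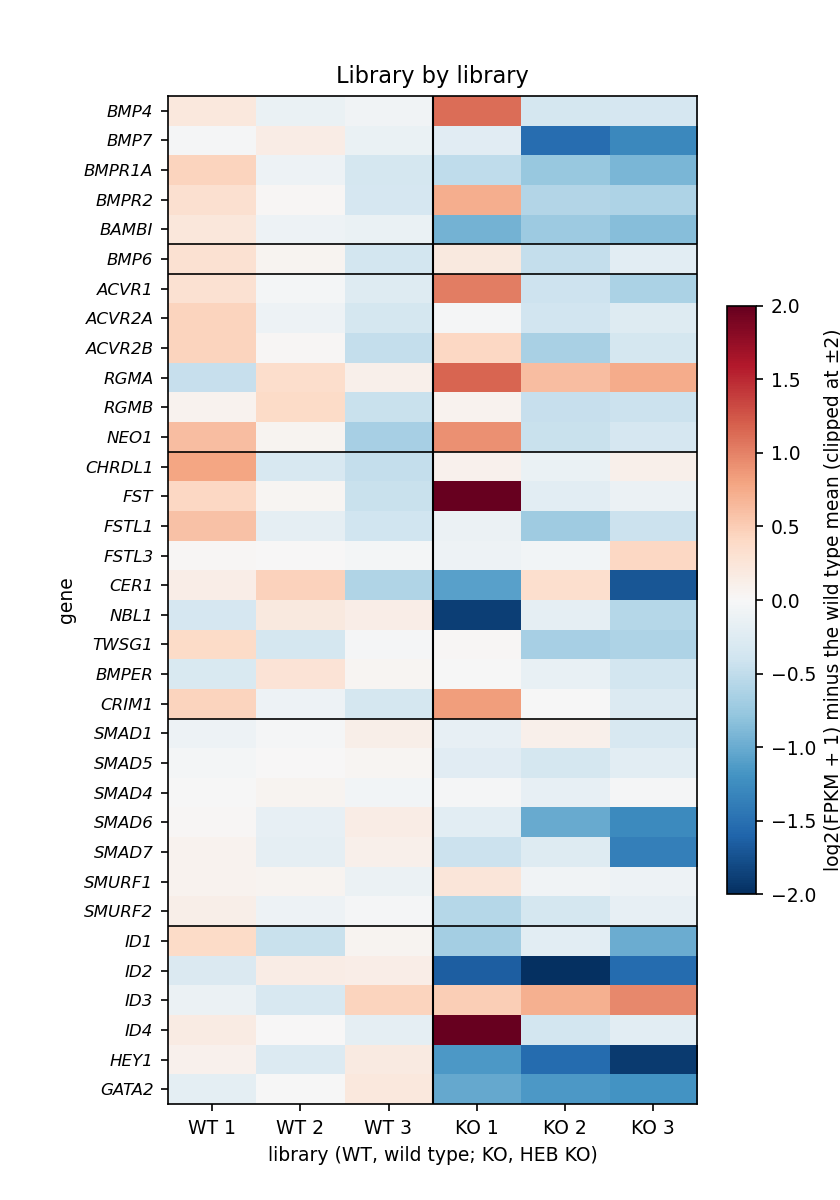
Heat map of log2(FPKM + 1) minus the wild type mean for each BMP pathway gene past the filter (rows, grouped by role between black lines, with the described genes on top) in each wild type (WT) and HEB KO (KO) library. BAMBI and BMPR1A are blue in all HEB KO libraries, while BMP4, BMPR2, FST and ID4 are red in HEB KO library 1 and blue or pale in HEB KO libraries 2 and 3.

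Both groups carried the markers of primed pluripotent stem cells, as labelled. All 12 pluripotency markers passed the filter, and their summed level was 3133 to 3645 FPKM in wild type. It was 2025 FPKM in HEB KO library 1, where all values summed to 440703 FPKM. In HEB KO libraries 2 and 3 it was 3444 and 3628 FPKM, where all values summed to 670119 and 663792 FPKM. The marker sums were not scaled to these totals, so the lower marker sum of library 1 goes with a lower total. POU5F1, LIN28A and DNMT3B had the highest means of the 12 markers, and no marker of the 12 passed the test. NANOG, a core pluripotency factor, read 208, 203 and 198 FPKM in wild type, against 74.3, 123 and 95.1 FPKM in HEB KO (a log2 difference of -1.08, adjusted p = 0.274 by limma). Of the 12, NANOG and LIN28B lay wholly below wild type, as did 11.8% of all tested genes. SALL4 lay wholly above it, as did 7.72%. The part of these 12 markers in the values of the BMP genes was not tested. The 12 amnion and trophoblast markers summed to 5.57 to 7.60 FPKM in wild type, against 4.47 to 14.4 FPKM in HEB KO, with the highest in library 1, 6 of them below 1 FPKM in every library and CGB5 at 0. The 10 primitive streak and mesoderm markers summed to 3.79 to 7.50 and 1.69 to 2.14 FPKM, with 9 below 1 FPKM throughout and EVX1 and HAND2 at 0. The remaining marker, MIXL1, read 5.80, 1.75 and 3.13 FPKM in wild type, against 0.988, 0.465 and 0.814 FPKM in HEB KO. MIXL1 entered the test through wild type alone and so had to differ, and it did not pass (adjusted p = 0.294 by limma). The 7 definitive endoderm markers summed to 0.784 to 2.45 and 0.981 to 1.80 FPKM, and the 7 neural ectoderm markers to 0.825 to 1.50 and 0.844 to 3.18 FPKM, with 6 of each below 1 FPKM throughout. The 9 fibroblast and mesenchyme markers summed to 210 to 264 and 178 to 308 FPKM, most of it THY1, which stem cells also express, with DCN at 0 and COL1A1 at 39.7 FPKM in HEB KO library 1 and at most 3.21 FPKM elsewhere.

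Of the other 11 BMP-class ligands, 1 reached the test, and it did not pass. BMP6 averaged 1.42 ± 0.545 FPKM in wild type, against 1.16 ± 0.507 FPKM in HEB KO (± SD of 3 libraries). BMP8A and BMP8B, the next by level, read 0.179 to 0.214 and 0.179 to 0.530 FPKM in wild type. They read 1.28 and 1.02 FPKM in HEB KO library 1 and at most 0.211 FPKM in HEB KO libraries 2 and 3. BMP3, which was not tested, lay wholly below wild type, at 0.0107 to 0.106 FPKM in HEB KO against 0.232 to 0.316 FPKM. How often untested genes separate in this way was not measured. BMP15 and GDF2 were listed at 0 in all libraries. BMP7 thus stood above every other BMP-class ligand listed in each library.

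Of 9 other BMP-binding receptors and co-receptors, 6 were tested and none passed, 4 with a lower and 2 with a higher log2 value. An unadjusted limma p under 0.05 was reached by 1 of them, against 10% of all genes. ACVR2B had wild type and HEB KO means of 53.1 ± 17.0 and 47.1 ± 19.2 FPKM, NEO1, which encodes the receptor neogenin, 15.2 ± 6.89 and 16.2 ± 9.85 FPKM, and RGMB, a BMP co-receptor, 10.3 ± 3.07 and 8.26 ± 2.01 FPKM. RGMA, another co-receptor of the same family, was named after its values were seen. It alone of the 6 tested did not overlap, lying wholly above wild type, against 7.72% of all genes above and 11.8% below. ENG, which was not tested and reached 1 FPKM in 1 library only, lay wholly above wild type too. RGMA read 1.52, 3.41 and 2.70 FPKM in wild type, against 6.70, 4.31 and 4.78 FPKM in HEB KO (a log2 difference of 0.84, adjusted p = 0.377 by limma). All 6 tested genes of this list were highest in library 1 among the HEB KO libraries.

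Of 20 other extracellular antagonists and modulators, 9 were tested and none passed. None reached an unadjusted limma p under 0.05 either, which 10% of all genes did. FSTL1, a follistatin-like secreted protein, averaged 238 ± 89.7 FPKM in wild type, against 172 ± 35.8 FPKM in HEB KO. TWSG1, which encodes the BMP-binding protein twisted gastrulation, averaged 18.2 ± 4.92 and 13.4 ± 4.07 FPKM, and CRIM1, a membrane protein that binds BMPs, 11.6 ± 3.63 and 13.7 ± 6.25 FPKM. All 3 overlapped between the groups. The median log2 fold change of the 9 tested was -0.18. Among the untested genes of this list, TLL2 lay wholly below wild type and KCP wholly above it. TLL2 read 0.914 to 1.47 FPKM in wild type, against 0.198 to 0.547 FPKM in HEB KO. KCP read 0.0939 to 0.109 FPKM in wild type, against 0.203 to 0.230 FPKM in HEB KO.

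Of the 8 SMADs and SMAD ubiquitin ligases, 7 were tested, none passed and 1 had an unadjusted limma p under 0.05, against 10% of all genes. Of these 7, 4 were lower in every HEB KO library, SMAD5, SMAD6, SMAD7 and SMURF2, against 11.8% of all genes. SMAD5, a transducer of the BMP signal, averaged 27.5 ± 0.751 and 22.8 ± 1.31 FPKM, and SMAD4, the partner shared with the activin branch, 21.4 ± 0.914 and 20.3 ± 1.11 FPKM. The inhibitory SMADs are both targets and brakes of the pathway. SMAD7 read 21.4, 17.8 and 21.8 FPKM in wild type, against 14.7, 16.8 and 7.20 FPKM in HEB KO. SMAD6, the inhibitor that acts mainly on the BMP branch and was named after its values were seen, read 5.18, 4.43 and 5.75 FPKM in wild type, against 4.24, 2.02 and 1.52 FPKM in HEB KO (a log2 difference of -0.84, adjusted p = 0.406 by limma). Like BMP7, SMAD6 was closest to wild type in HEB KO library 1.

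Of 17 BMP target genes, 8 were tested and none passed, with 5 at an unadjusted limma p under 0.05 against 10% of all genes. ID2, SMAD6, SMAD7, HEY1 and GATA2 lay wholly below wild type, against 11.8% of all genes, and ID3 wholly above it, against 7.72%. SMAD6 and SMAD7 belong to the list of SMADs and ligases too, so the counts of the lists are not independent. GATA2 entered the test through wild type alone and so had to differ. ID1, the most used readout of BMP signalling, read 66.9, 37.2 and 53.2 FPKM in wild type, against 31.3, 43.8 and 25.0 FPKM in HEB KO, which overlapped. ID3 read 19.7, 17.0 and 29.5 FPKM in wild type, against 30.5, 35.7 and 42.6 FPKM in HEB KO (a log2 difference of 0.72, adjusted p = 0.416 by limma). ID2 read 36.0, 49.1 and 48.8 FPKM in wild type, against 13.4, 8.22 and 14.6 FPKM in HEB KO (a log2 difference of -1.83, adjusted p = 0.0545 by limma). Without HEB KO library 1, ID2 and HEY1 passed (adjusted p = 0.0417 and 0.0335 by limma), where 0.587% of all genes did. The ID genes did not stand in 1 direction: the ratio of ID3 to ID1 was 0.294 to 0.554 in wild type and 0.815 to 1.71 in HEB KO.

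Other genes with profiles like those of the described genes were sought among those with a mean of at least 5 FPKM. The measure was the root mean square difference of log2(FPKM + 1) over the 6 libraries, after each gene was centred on its own mean, so that a smaller value is a closer profile. Nearest to BAMBI were TMEM200B (0.078) and ZNF675 (0.093), and TMEM200B read 18.4, 12.7 and 12.1 FPKM in wild type, against 7.11, 7.61 and 7.53 FPKM in HEB KO. Nearest to BMPR1A were CALU (0.069) and ITFG1 (0.082), and CALU read 163, 121 and 104 FPKM in wild type, against 85.6, 71.2 and 71.1 FPKM in HEB KO. Nearest to BMP7 were NIN (0.080) and SRGAP2C (0.098), the latter 1 of a family of near-identical copies and therefore uncertain. NIN read 12.4, 14.2 and 11.5 FPKM in wild type, against 11.2, 4.53 and 5.10 FPKM in HEB KO. Nearest to BMPR2 were SLC44A2 (0.055) and VPS13C (0.059), and nearest to BMP4 were PTPN12 (0.088) and ATP1A1OS (0.092). The genes were picked from 9082 or 9083 candidates for likeness, so the likeness itself is no finding.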

How the data were processed

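Total RNA of 6 libraries was sequenced after removal of ribosomal RNA with a stranded library kit, per the labels' protocols. Per the submitters' processing notes, the aligners were TopHat2 2.1.0 and Bowtie2 2.2.6 and the build was hg19. The table deposited by the authors holds 1 value per gene and library, taken from the values themselves to be FPKM. Which tool quantified them, with which annotation and strand setting, is not given in the sources used here, and hence overlapping genes cannot be told apart (BMP7, BMPR1A and BMPR2 have such partners). Left out were 28 of 23619 entries whose symbol had become a date, which leaves 23591 genes.

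Values were tested as log2(FPKM + 1) with limma 3.58.1 (R 4.3.3, prior variance following intensity). A gene had to reach 1 FPKM in 3 or more libraries, which 12937 did. Tests were two-sided, with Benjamini-Hochberg adjustment at 0.05 over all of them. This scale understates changes of low genes. Genes under 1e-10 FPKM are described as at 0. Fold values are ratios of mean FPKM, and SD and n refer to 3 libraries a group. The values are normalized and not counts, so no count model was run. The code was tested on simulated data. The labels gave the groups and the replicate numbers. The members, gene lists and rules were chosen with earlier results of these data known. All 8 members are named, as is TCF12, with the 3 genes of the highest mean from each pathway list and the 2 nearest profiles of each tested member. Others were named after their values were seen. Alternatives covered the pseudocount, filter, scaling, intensity trend, library weights, replicate block and left-out libraries.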

Additional observations from a re-analysis of the deposited data

How the results depend on the processing

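Of 17 other settings, the log2 fold changes of BMP7 (17 settings, -1.42 to -0.73), BMPR1A (17, -0.90 to -0.49) and BAMBI (17, -0.91 to -0.63) kept their negative sign in all. BMP4 was -0.22 with library weights, -0.24 with both libraries numbered 1 left out and -0.35 to 0.39 over single libraries left out. BMPR2 was 0.04 with each library rescaled to the same sum and -0.60 to 0.07 over single libraries left out. That rescaling moved the median of all genes from -0.04 to 0.17. The count of the 8 genes past the threshold was 0, and it was 3 with library weights, 1 with both libraries numbered 1 left out and 0 to 1 over single libraries left out. Over all genes the count of 31 became 11 when unfiltered, 18 when filtered at 5 FPKM, 8 with the same sum, 1874 with library weights, 480 with both libraries numbered 1 left out and 7 to 76 over single libraries left out, 76 being without HEB KO library 1. TCF12 stayed negative throughout, at -2.31 with no filter (limma adjusted p = 0.105), -2.12 with the same sum (adjusted p = 0.329) and -2.60 to -2.10 over single libraries left out (adjusted p up to 0.193). Filters alter the set of tested genes, and left-out libraries reduce the sample number. For the other shifts the cause was not tested.

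With a replicate block, limma called 10 genes, none of them among the 8, and TCF12 had -2.31 (limma adjusted p = 0.0957). Deviations of same-numbered libraries correlated at 0.262, -0.0399 and 0.269, so the numbers are not taken to pair the libraries. Among the wild type libraries, only library 1 correlated best with its own number; library 2 did so with HEB KO library 1 (0.146) and library 3 with HEB KO library 2 (0.408). Count-based tests were not run, since the table holds no counts, and the precision of BMP2, BMPR1B and NOG at their low levels is unknown.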
